A study of Solanum tuberosum with 12 samples.

Results

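Mature tubers of the potato cultivar Red beauty were compared with those of the cultivar LK99 by small RNA sequencing, with 3 libraries of each. Counts came as 7827 table entries that hold 5730 distinct sequences of 18 to 26 nt, each counted once here, and 5403 of them had at least 1 count in the 6 libraries. The study set the comparison among 4 cultivars in a search for miRNAs of anthocyanin synthesis, the red, purple and blue plant pigments. All were grown at the same site under shared irrigation, light and temperature and sampled at harvest, with an age of 150 days in the labels. No treatment was given, and no transgene or mutation is named for either cultivar. The other 6 libraries, of Black kingkong and Longshu No.7, entered the fit to estimate the spread between libraries. They also took part in the filter on low counts and in the scaling, and are described only where stated. Skin and flesh colour are not in the labels. Whether the libraries of a cultivar came from separate plants is not stated either, so a p-value reflects only how far these libraries spread, and that spread may be technical.

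A plant miRNA is cut from a folded precursor by a Dicer-like enzyme as a duplex of a 5p and a 3p strand. One strand is kept by an Argonaute protein and guides it to messenger RNAs with a nearly complementary site, which are cleaved or translated less. In anthocyanin tissues of other plants, miR858 and miR828 target MYB transcription factors and miR156 targets SPL factors, whose products act on the pigment genes. In potato, miR156 and miR172 are also known for opposite effects on tuber formation.

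The sequences on which the comparison turns are shown in the letters of the deposited table (T for U), 5′ to 3′, with bases 2 to 8, the seed, in capitals. The first set holds the miR858, miR828 and miR156 members, since these showed both the highest differences among anthocyanin regulators and opposite directions within a family. The letters x, y and z in names taken from other species are the authors' and are not explained in the sources used here.
miR858-x: tCTCATTGtctgttcgacct
miR858-y: cTCATTGTctgttcgaccttg
miR828-x: tCTTGCTCaaatgagtattcca
stu-miR156d-5p: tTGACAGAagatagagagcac
stu-miR156e: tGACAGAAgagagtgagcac
miR156-x: aCTGACAGaagagagtgagc
stu-miR156f-5p: cTGACAGAagagagtgagca
The next set holds potato-named miRNAs and a relative with large differences.
stu-miR530: tCTGCATTtgcacctgcacct
stu-miR6149-5p: tTGCAACAcacctgaatcgtc
stu-miR6149-3p: tGATTCAGgtttgtatgcaaac
stu-miR8006-5p: tAGTTTTTggacgacaggggcacc
miR8006-x: tAGTTTTTggactgcaggggcacc
stu-miR6026-5p: aATACAACtattgccaagacaa
Predicted miRNAs carry only serial names in the table and are labelled P1 to P22 here. The following hold P1 to P19: both strands of an abundant precursor (P1 the 5p and P2 the 3p strand), and steep calls in each direction. The steep calls were taken among those without overlap and with at least 10 CPM in the higher cultivar, 1 per seed. P11 and P12 lay below that level and were chosen as the most counted in Red beauty with 0 counts in LK99.
P1: tGAAGGTCcgaggttgaggtt
P2: cATCATCCtcgtaccttcatc
P3: aACTTTTCcaggatttgaccc
P4: tTTCATCGtttagagcgttcct
P5: tTCCAGAAgagggaacttttc
P6: tTTGGTTGacgggttggtagcct
P7: tTAAGAAAagactcattcatg
P8: cCTCAACTcgtctctactgtgt
P9: tTTTGTATgactcactcgggaa
P10: gTGTGTCTcctgtaccctccct
P11: tTCCTGGCcccaagcgaaccct
P12: cCCTTCCAactctttgaccga
P13: tTGACCATggacctgtccaacc
P14: tCCATCAGcagcagaagcttt
P15: tTTGTCACgacccgagagtacc
P16: tCTCGGAAaatgtagtctgcct
P17: tTCGAGTTtcatatctgaact
P18: tCTCCTTGaagacacactctag
P19: tTTGTATGactcacccgagaaa

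The libraries held 5.51 to 6.81 (in 1e6 counts) for Red beauty and 5.69 to 6.34 for LK99. A single sequence, miR166-y, took 93.4% ± 0.413 (SD, n = 3) of the Red beauty counts and 89.5% ± 1.01 (n = 3) of the LK99 counts. Levels are given as counts per 1e6 counts of the library (CPM), scaled by TMM, which sets the libraries so that most sequences do not differ, and the mean scaling factor was 0.857 in Red beauty and 1.26 in LK99. Log2 CPM correlated at 0.954 to 0.965 among the Red beauty libraries, 0.905 to 0.960 among the LK99 libraries and 0.725 to 0.767 between them. Longshu No.7 replicate 3 and LK99 replicate 3 were the libraries least like their own cultivar, with lowest values of 0.868 and 0.905. Animal-type names such as let-7 numbered 0 in the table. No miRNA that defines tuber tissue was in the lists used, so the tissue label was not tested.

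Of 1003 distinct sequences counted highly enough to be tested, 325 (32.4%) differed at an adjusted p below 0.05 by edgeR's quasi-likelihood test. Red beauty was higher for 142 (14.2%) and lower for 183 (18.2%), and the median log2 fold change over all tested sequences was 0.01. The 3 libraries of each cultivar did not overlap for 476 sequences (47.5%), of which 308 were also called. The median size of a called difference was 2.77 on the log2 scale. Among the 20 sequences with the highest means, 6 were higher and 5 lower in Red beauty, so the differences were not restricted to rare sequences. A library scaling by total counts alone moved the median of all sequences to -0.53 and the split to 86 higher and 293 lower; directions below are relative to the typical sequence, and each named excess in Red beauty that this scaling ends is marked as such. Each library is a bulk tuber sample, in which fewer cells of a type and less RNA per cell cannot be told apart. Without both LK99 replicate 3 and Longshu No.7 replicate 3, a setting chosen after seeing the data, 455 sequences were called, 198 higher and 257 lower. Without Longshu No.7 replicate 3 alone the count was 475. The filter on low counts used all 12 libraries, and with only the 6 libraries of both cultivars 699 sequences were tested and 266 called.

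**Figure D1:**
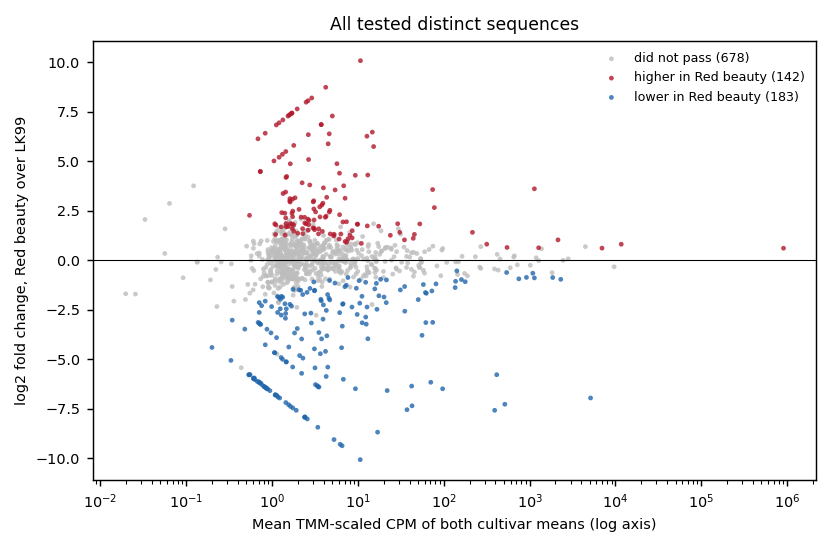
Log2 fold change of Red beauty over LK99 against the mean TMM-scaled CPM of both cultivars (log axis), 1 point per tested distinct sequence. The 142 sequences higher in Red beauty and the 183 lower ones spread over the whole range of levels.

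Families known to regulate anthocyanin in other plants were mostly lower in Red beauty. Of their 17 distinct sequences, 12 were tested and 9 were called, 2 higher and 7 lower, beside 14.2% and 18.2% of all tested sequences, and the median log2 fold change was -1.08. With only the 6 libraries of both cultivars, 11 were tested, 2 higher and 5 lower. Scaling by total counts gave 2 higher and 8 lower, and leaving miR166-y out of those totals gave 2 and 6. The miR858 forms are the same stretch with shifted ends, as are miR156-x and stu-miR156f-5p, so these calls are not all independent. The 3 miR858 sequences and miR828-x were all lower. Both sequences that were higher belonged to the miR156 family, which otherwise was lower or did not pass. In the cultivars outside this comparison miR858-x averaged 414 CPM in Black kingkong and 2.27 CPM in Longshu No.7. miR828-x was also higher in Black kingkong than in Longshu No.7, by 3.43 on the log2 scale (adjusted p 7.5e-05, edgeR). The low miR858-x level of Red beauty was thus shared with Longshu No.7. A link of these levels to tuber colour was not tested.

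miR858 represses MYB genes of phenylpropanoid and flavonoid synthesis in Arabidopsis and tomato. miR858-x was at 1.07, 0.795 and 4.43 CPM in the Red beauty libraries and at 139, 175 and 262 CPM in those of LK99. miR858-y was at 1.07, 0.597 and 4.06 CPM in Red beauty and at 183, 117 and 118 CPM in LK99. Each LK99 library lay far above every Red beauty library, and Red beauty replicate 3 was the highest of its cultivar for both sequences. The log2 fold changes were -6.50 (SE 0.65, adjusted p 8.8e-06, edgeR) for miR858-x and -6.17 (SE 0.65, adjusted p 1.3e-05) for miR858-y, and without Red beauty replicate 3 they were -7.73 and -7.43. Both are the same stretch with shifted ends, as the sequences above show, so they are not independent. Another form, miR858-z, had 1 count in Red beauty and 20 in LK99, a ratio of 14.2 (95% exact interval 2.28 to 590, counting error only). miR828-x, which in Arabidopsis targets MYB genes and sets off secondary small RNAs, was at 2.67, 1.99 and 1.48 CPM in Red beauty and at 8.42, 4.61 and 7.47 CPM in LK99, a log2 difference of -1.73 (SE 0.38, adjusted p 0.0029).

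miR156 holds back SPL factors, which control the juvenile phase and, in Arabidopsis, repress anthocyanin genes. The most abundant member, stu-miR156d-5p, whose letters stu-miR156a to stu-miR156d share, was at 1982, 1349 and 1356 CPM in Red beauty and 2741, 1987 and 4412 CPM in LK99. Replicate 1 of Red beauty all but reached the lowest LK99 library, while LK99 replicate 3 stood above the rest. The log2 fold change of -0.96 (SE 0.27, adjusted p 0.013) was -0.60 (adjusted p 0.085) without LK99 replicate 3 and -0.86 (adjusted p 0.060) without Red beauty replicate 2. stu-miR156e went the other way, with 155, 140 and 116 CPM in Red beauty against 14.5, 6.77 and 13.1 CPM in LK99. Its log2 fold change was 3.57 (SE 0.40, adjusted p 2.3e-05). The entries stu-miR156g-5p to stu-miR156k-5p share its letters, so its level cannot be assigned to a single precursor. The opposite strand in the stu-miR156g precursor, stu-miR156g-3p, had 9.42, 5.97 and 8.86 CPM against 2.02, 0.769 and 1.31 CPM, a log2 difference of 2.53 (SE 0.45, adjusted p 0.00074). For both sequences every Red beauty library lay above every LK99 library. miR156-x was lower, at 30.0 CPM ± 0.776 (SD, n = 3) against 95.3 ± 60.8 (n = 3), and the log2 difference of -1.67 (SE 0.39, adjusted p 0.0047) was -0.999 without LK99 replicate 3. stu-miR156f-5p had overlapping libraries and an adjusted p of 0.0499, which rose to between 0.056 and 0.246 in 8 of the 12 fits that each left out a library. miR156-y (-0.41, adjusted p 0.36), miR157-x (-0.997, adjusted p 0.076) and stu-miR156d-3p (0.05, adjusted p 0.93) did not pass.

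**Figure D2:**
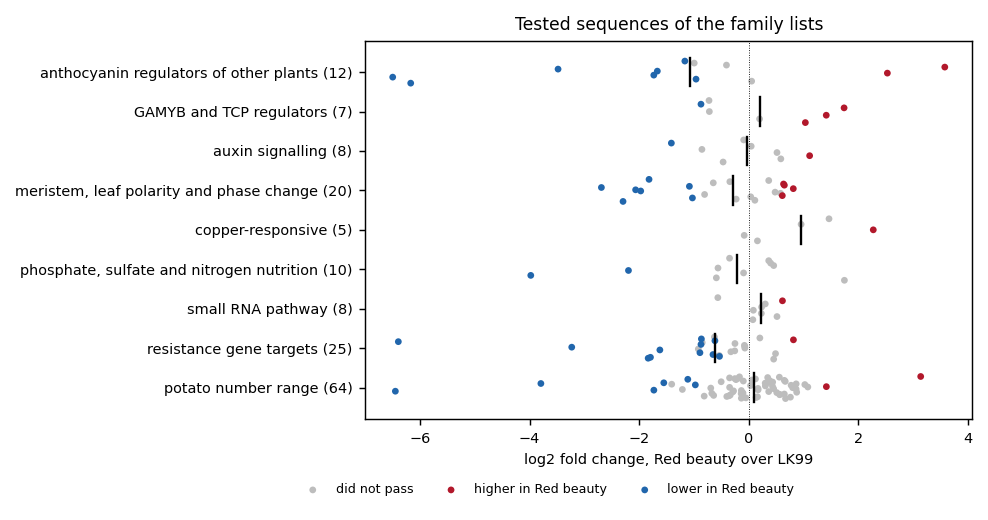
Log2 fold change of Red beauty over LK99 for each tested sequence of the family lists, with the number tested in brackets; black bars are medians and colours mark the calls. The anthocyanin regulator list has its median at -1.08 and the resistance gene list at -0.62, beside 0.01 over all tested sequences.

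miR319, which targets TCP growth factors, and miR159, which targets GAMYB factors, have similar sequences. Of the 6 tested miR319 sequences 3 were higher and 3 did not pass, and the single tested miR159 sequence was lower. Of all tested sequences 14.2% were higher and 18.2% lower, and a difference from these shares was not tested. Over all 7 the median log2 fold change was 0.20, and under scaling by total counts it was -0.37, with 2 higher and 3 lower. stu-miR319a-3p was at 2435, 2715 and 3468 CPM in Red beauty and 1330, 971 and 1918 CPM in LK99, with no overlap. Its log2 fold change of 1.03 (SE 0.24, adjusted p 0.0050) was 0.78 (adjusted p 0.061) without Red beauty replicate 3 and 0.46 (adjusted p 0.11) under scaling by total counts. miR319-y, the same letters with an added base at the 3′ end, was at 276, 315 and 350 CPM against 122, 112 and 119 CPM (log2 fold change 1.41, SE 0.20, adjusted p 0.00017). The opposite strand stu-miR319a-5p was higher as well, by 1.74 (SE 0.29, adjusted p 0.00052). miR159-y was lower, at 1259, 1346 and 1328 CPM in Red beauty and 2581, 1863 and 2761 CPM in LK99, a log2 difference of -0.87 (SE 0.23, adjusted p 0.0090). stu-miR319b, a shorter form, was at 103, 100 and 124 CPM against 201, 178 and 162 CPM and did not pass (-0.72, adjusted p 0.052), though the libraries did not overlap. It passed as lower in several other settings, such as the 6 libraries alone (-0.73, adjusted p 0.025, edgeR) and scaling by total counts (-1.30, adjusted p 0.0012, edgeR). In the main fit miR319-x (-0.73, adjusted p 0.13) and stu-miR319-3p (0.20, adjusted p 0.65) did not pass either. These near-identical sequences may exchange reads in the authors' counting, so the level of each single form is uncertain. miR159-y, miR319-y and stu-miR319b were chosen after their values were seen.
miR319-y: tTGGACTGaagggagctccctt
stu-miR319a-3p: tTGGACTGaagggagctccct
stu-miR319b: tTGGACTGaagggagctcct
miR159-y: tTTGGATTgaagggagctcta

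**Figure D3:**
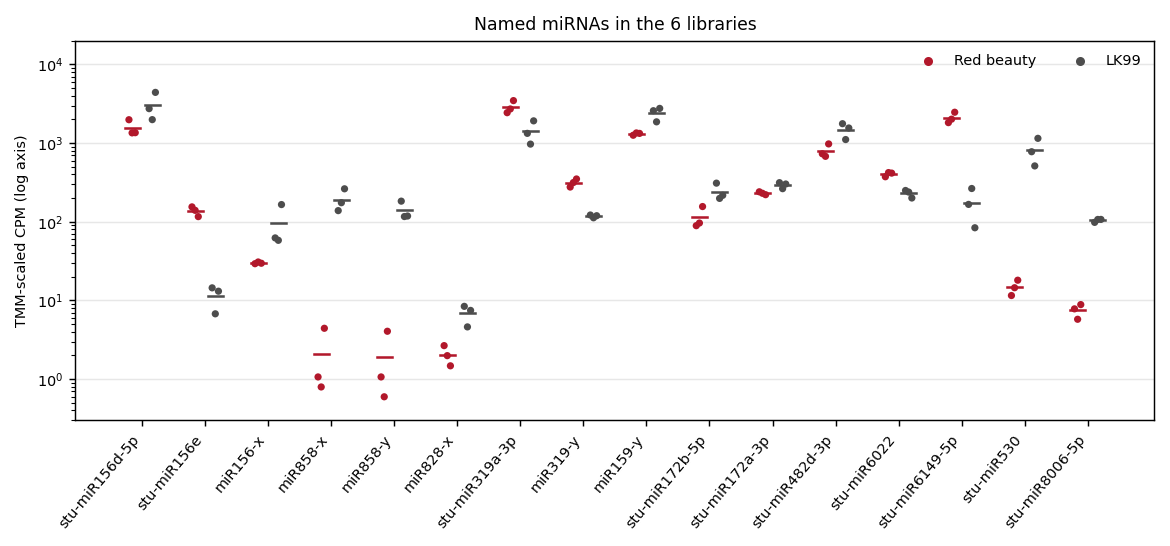
TMM-scaled CPM (log axis) of 16 named miRNAs; points are the 3 libraries of each cultivar and lines their means. The miR858 sequences and stu-miR530 lie far lower in Red beauty, and stu-miR156e and stu-miR6149-5p far higher, with no overlap between cultivars.

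The families that act on meristems, leaf polarity and phase change had 20 tested sequences, 4 higher and 7 lower, beside 14.2% and 18.2% of all tested sequences, with a median log2 fold change of -0.29. With only the 6 libraries of both cultivars, 16 were tested, 4 higher and 4 lower. The higher ones were sequences of miR166, which targets HD-ZIP factors of vascular and organ polarity, and of miR396, which targets growth-regulating factors. None of the 4 stayed called under scaling by total counts, which called 0 higher and 11 lower in this list. stu-miR166d-3p was at 1738, 1366 and 1540 CPM in Red beauty and 1076, 1046 and 874 CPM in LK99 (log2 fold change 0.63, SE 0.18, adjusted p 0.014), and lost its call, at adjusted p 0.051 to 0.13, in 4 of the 12 fits that each left out a library. Those libraries were Black kingkong replicate 3, LK99 replicate 3 and Red beauty replicates 1 and 3. The entries stu-miR166a-3p and stu-miR166c-3p share the letters of stu-miR166d-3p, so its level cannot be assigned to a single precursor. The 5p strand stu-miR166d-5p went the other way at 1.78, 1.19 and 1.48 CPM against 3.56, 6.30 and 7.87 CPM (log2 fold change -1.97, SE 0.37, adjusted p 0.0012). For miR166-y the log2 fold change of 0.61 (adjusted p 0.0092) became 0.06 (adjusted p 0.23) under scaling by total counts, and it lost its call without LK99 replicate 1 or Red beauty replicate 1 or 3 (adjusted p 0.054 to 0.084). stu-miR396-5p was at 11673, 15121 and 17793 CPM against 6963, 9339 and 9118 CPM, higher by 0.81 on the log2 scale (SE 0.26, adjusted p 0.028). It lost its call in 5 of those 12 fits, without Black kingkong replicate 3, LK99 replicate 1 or 2 or Red beauty replicate 2 or 3 (adjusted p 0.0503 to 0.17), and had 0.26 (adjusted p 0.29) under scaling by total counts.

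miR172 targets AP2-like factors of flowering and, in potato, promotes tuber formation. Lower calls fell on 5p sequences and on the 3p form miR172-y. stu-miR172b-5p was at 89.2, 96.4 and 156 CPM in Red beauty and 310, 198 and 217 CPM in LK99, a log2 difference of -1.08 (SE 0.28, adjusted p 0.0091). It lost its call without Red beauty replicate 1 or 2, at adjusted p 0.060 and 0.062. miR172-x (gCAGCACTattaagattctc), at 4.98, 4.77 and 4.98 CPM against 19.3, 14.8 and 18.1 CPM, kept its call in all 12 such fits (log2 fold change -1.82, SE 0.29, adjusted p 0.00041). stu-miR172d-5p and stu-miR172e-5p were lower by -2.69 (adjusted p 0.016) and -2.30 (adjusted p 0.036), and both lost the call without LK99 replicate 1 or Red beauty replicate 1 or 2, stu-miR172e-5p also without LK99 replicate 3. Both were rare, with 6 counts in Red beauty against 57 in LK99 for stu-miR172d-5p and 4 against 30 for stu-miR172e-5p. The libraries of both cultivars overlapped for stu-miR172e-5p. The abundant 3p strand did not pass: stu-miR172a-3p was at 240, 230 and 221 CPM against 314, 264 and 302 CPM (-0.35, adjusted p 0.19), with no overlap between cultivars. Under scaling by total counts it was -0.91 (adjusted p 0.0026). The 3p form stu-miR172d-3p had -0.81 (adjusted p 0.13). stu-miR172b-5p, miR172-x, stu-miR172d-3p and miR172-y were chosen after their values were seen. miR172-y was lower by -1.03 (adjusted p 0.016) and lost its call without LK99 replicate 3 or Red beauty replicate 2 or 3 (adjusted p 0.050 to 0.090).

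Families of auxin signalling, nutrition, copper and the small RNA pathway had 2 of 8, 2 of 10, 1 of 5 and 1 of 8 tested sequences called, beside 32.4% of all tested sequences, and a difference from that share was not tested. Of the auxin sequences, miR167-x, whose family targets auxin response factors, was higher (59.2, 72.4 and 49.3 CPM against 30.3, 28.3 and 25.2 CPM; log2 fold change 1.11, SE 0.27, adjusted p 0.0056), with 0.55 (adjusted p 0.18) under scaling by total counts. miR393-x, whose family targets auxin receptors, was at 3.38, 6.96 and 5.35 CPM against 10.2, 14.5 and 17.2 CPM. Its log2 fold change of -1.41 (SE 0.48, adjusted p 0.036) was lost without LK99 replicate 2 or 3 or any single Red beauty library (adjusted p 0.052 to 0.12). Of 10 nutrition sequences 2 were lower. miR2111-x, which in legumes acts in nitrogen-dependent root nodulation, had 0, 0.199 and 0.554 CPM against 6.05, 1.23 and 5.24 CPM (log2 fold change -3.98, SE 0.81, adjusted p 0.0019; -5.31 without Red beauty replicate 3). stu-miR169f-3p, chosen after its values were seen and from a family known to target NF-YA transcription factors, was at 2.31, 3.98 and 0.923 CPM against 11.6, 9.23 and 12.2 CPM (-2.20, SE 0.42, adjusted p 0.0013).

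Of 5 tested copper-responsive sequences only stu-miR408b-5p was called, at 0.919 against 0.174 CPM on average (log2 fold change 2.27, SE 0.72, adjusted p 0.026). It was lost without any single LK99 library or Red beauty replicate 1 or 3 (adjusted p 0.060 to 0.12), and all copper calls ended under scaling by total counts. miR397-y, which targets laccases, had a log2 fold change of 0.16 (adjusted p 0.91). The abundant nutrition member stu-miR827-3p, whose family targets SPX-domain proteins, had -0.59 (adjusted p 0.25). All 8 distinct sequences of the small RNA pathway list were tested. stu-miR162a-3p, whose family targets the Dicer-like enzyme that makes miRNAs, was at 7852, 7956 and 9459 CPM against 4511, 5962 and 6048 CPM. Its log2 fold change of 0.61 (SE 0.18, adjusted p 0.017) was 0.07 (adjusted p 0.69) under scaling by total counts and was lost without Black kingkong replicate 3, LK99 replicate 1 or Red beauty replicate 1 or 3 (adjusted p 0.059 to 0.14). The median log2 fold change of that list was 0.23, and -0.32 under scaling by total counts.

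Families that target disease resistance genes are a class well known in the nightshade family. Of 25 tested sequences 11 were lower and 1 was higher, beside 18.2% and 14.2% of all tested sequences, with a median log2 fold change of -0.62. The count depended on the scaling, with 18 lower and 0 higher under scaling by total counts, and 5 lower and 1 higher when miR166-y was left out of those totals. With only the 6 libraries of both cultivars, 22 were tested, 7 lower and 1 higher. stu-miR482d-3p was at 732, 679 and 976 CPM in Red beauty and 1764, 1110 and 1556 CPM in LK99, with no overlap (log2 fold change -0.89, SE 0.21, adjusted p 0.0053). stu-miR6024-3p was at 9.24, 9.35 and 4.98 CPM against 48.1, 12.0 and 21.6 CPM, and its difference of -1.79 (adjusted p 0.0081) was -1.14 (adjusted p 0.054) without LK99 replicate 1. The rare strand stu-miR6026-5p was counted once in Red beauty and 161 times in LK99, a ratio of 115 (95% exact interval 20.3 to 4557). Its partner stu-miR6026-3p, at 120, 109 and 118 CPM against 158, 186 and 160 CPM, moved far less (-0.54, SE 0.19, adjusted p 0.049) and lost its call in 10 of the 12 fits that each left out a library. stu-miR482e-3p (-0.62, adjusted p 0.045) lost it in 9. stu-miR482e-5p had 1.78, 3.58 and 1.85 CPM against 36.3, 29.4 and 2.10 CPM, so that LK99 replicate 3 lay within the Red beauty range (-3.23, SE 0.84, adjusted p 0.0089). The only higher member, stu-miR6022, was at 373, 422 and 415 CPM against 250, 239 and 201 CPM (0.81, SE 0.19, adjusted p 0.0051) and at 0.25 (adjusted p 0.43) under scaling by total counts. The most abundant member, miR5300-x, did not pass (-0.33, adjusted p 0.29), though it passed in at least 1 fit without a library (lowest adjusted p 0.031). stu-miR482d-3p, stu-miR6022 and stu-miR6024-3p were chosen after their values were seen.

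Among the miRNAs numbered in the range given to potato, 64 of 180 distinct sequences were tested and 2 were higher and 6 lower (12.5%), beside 32.4% of all tested sequences, and the difference between these shares was not tested. Of these, stu-miR8006-5p was at 7.82, 5.77 and 8.86 CPM in Red beauty and 98.3, 107 and 107 CPM in LK99 (log2 fold change -3.79, SE 0.25, adjusted p 3.1e-07). Its relative miR8006-x, which shares the seed and differs by T13G and G14A (first base that of miR8006-x, counted from its 5′ end), was at 39.3, 33.6 and 38.0 CPM against 101, 111 and 113 CPM (-1.55, SE 0.22, adjusted p 0.00020). In LK99 both forms were thus nearly equal, while in Red beauty miR8006-x was the more abundant in each library. stu-miR8036-3p was at 108, 107 and 110 CPM against 220, 193 and 226 CPM (-0.98, SE 0.20, adjusted p 0.0017). stu-miR8011a-3p had 0 counts in Red beauty and 39 in LK99, at least 9.26-fold lower when 3 counts are allowed over the Red beauty libraries. The higher pair was miR8044-x (11.6, 11.3 and 15.3 CPM against 0.711, 1.38 and 2.23 CPM; 3.13, SE 0.50, adjusted p 0.00039) and stu-miR7992-5p (55.6, 41.4 and 37.1 CPM against 19.2, 10.3 and 20.7 CPM; 1.41, SE 0.36, adjusted p 0.0083). The latter lost its call without Red beauty replicate 1 (adjusted p 0.057) and had 0.84 (adjusted p 0.15) under scaling by total counts. Better counted members of the miR8044 family did not pass. These were stu-miR8044-5p (mean 27.0 CPM over the 6 libraries; 0.76, adjusted p 0.39) and stu-miR8044-3p (mean 48.5 CPM; 0.34, adjusted p 0.75). stu-miR8006-5p, miR8006-x, miR8044-x and stu-miR7992-5p were chosen after their values were seen.

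Other potato-named miRNAs outside these lists showed some of the steepest differences at high counts. stu-miR530, a family that in rice targets a gene of grain yield, was at 11.6, 14.5 and 18.1 CPM in Red beauty and 777, 513 and 1149 CPM in LK99. Every LK99 library was far above every Red beauty library, and the log2 fold change reached -5.79 (SE 0.39, adjusted p 3.1e-07). stu-miR6149-5p was the reverse, at 1820, 2014 and 2468 CPM in Red beauty and 166, 265 and 83.9 CPM in LK99 (3.61, SE 0.35, adjusted p 7.7e-06). Its partner strand stu-miR6149-3p was far rarer and moved the same way, at 7.11, 9.15 and 7.20 CPM against 1.07, 1.08 and 0.393 CPM (3.18, SE 0.38, adjusted p 4.3e-05). These were chosen after their values were seen.

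Sequences that the authors predicted as miRNAs from their reads made up 773 of the 1003 tested. Of these 773, 117 were called higher and 143 lower (33.6%), beside 32.4% of all tested sequences. The predicted sequences took 1.11% ± 0.0220 (SD, n = 3) of all counts in Red beauty and 3.00% ± 0.357 (n = 3) in LK99. P1 alone took 1.28% ± 0.377 in LK99 and 0.00664% ± 0.00688 in Red beauty, and the other predicted sequences together took 1.11% ± 0.0287 in Red beauty and 1.71% ± 0.159 in LK99. P1, among the 5 most abundant sequences over the 6 libraries, was at 68.6, 1.79 and 174 CPM in Red beauty and 9645, 7575 and 13296 CPM in LK99. Its spread within Red beauty was wide, yet every LK99 library was far above (log2 fold change -6.96, SE 1.02, adjusted p 0.00022; -8.27 without Red beauty replicate 3). The partner strand P2 had 0, 0.597 and 0.554 CPM against 90.6, 28.0 and 104 CPM (-7.55, SE 0.67, adjusted p 3.8e-06). In the cultivars outside this comparison P1 averaged 18842 CPM in Black kingkong and 28.3 CPM in Longshu No.7. P3 was at 3.55, 0 and 8.49 CPM against 532, 594 and 1211 CPM (-7.58, SE 0.84, adjusted p 2.2e-05; -8.82 without Red beauty replicate 3).

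Of the tested sequences, 48 had 0 counts in all Red beauty libraries and 40 of these were called, while 23 had 0 counts in all LK99 libraries and 16 of these were called. The share called over all tested sequences was 32.4%. Such a sequence could pass the filter only through libraries where it was counted, including those of the cultivars outside this comparison. The filter thus favours calls among them, and these counts are no separate result. A count of 0 allows 3 counts over the 3 libraries, which is 0.187 CPM in Red beauty and 0.133 CPM in LK99. P4 had 0 counts in Red beauty and 466 in LK99 (16.6, 30.8 and 16.5 CPM), at least 111-fold lower. P5 and P6, with 296 and 276 counts in LK99 and 0 in Red beauty, were at least 70.3-fold and 65.5-fold lower. In the other direction P10 had 344 counts in Red beauty (17.1, 19.9 and 27.3 CPM) and 0 in LK99, at least 161-fold higher. P11 and P12, with 136 and 93 counts in Red beauty and 0 in LK99, were at least 63.6-fold and 43.5-fold higher. P8 had 1 count in Red beauty and 734 in LK99, a ratio of 523 (95% exact interval 93.5 to 20677), and P13 had 160 against 1, a ratio of 225 (39.7 to 8928). P7, with 237 counts in LK99 (3.91, 6.46 and 21.2 CPM) and 0 in Red beauty, was at least 56.3-fold lower. Among those counted in both cultivars, P14 was at 30.0, 30.2 and 27.1 CPM against 0.237, 0 and 0.656 CPM (log2 fold change 6.48, SE 0.54, adjusted p 3.0e-06; 7.58 without LK99 replicate 3). P15, P17 and P18 were higher by 5.75, 4.40 and 4.31 on the log2 scale, with adjusted p of 8.8e-06, 2.3e-05 and 0.0018.

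Several near-identical sequences moved in opposite directions. With a definition that allowed 1 differing base at the same length, 17 pairs were tested, 4 had both members called and 2 of these were opposite. With ends shifted by at most 2 bases and no mismatch, 26 pairs were tested, 13 had both members called and 2 were opposite, both involving stu-miR156e. A wider definition chosen after values were seen gave 28 pairs with both called, 7 of them opposite and 21 the same way. The pairs are printed with the differing bases in capitals, and substitutions are counted from the 5′ end of the first.
P20: tctcAgaaaatgtagtctgcct
P16: tctcGgaaaatgtagtctgcct
P21: ctcaaTcggcaagtaaacact
P22: ctcaaCcggcaagtaaacact
P19: tttgtatgactcacCcgAgaaa
P9: ttttgtatgactcacTcgGgaa
stu-miR156d-5p: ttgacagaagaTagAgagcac
stu-miR156e: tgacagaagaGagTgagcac

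P16, with 13.5, 8.55 and 11.1 CPM in Red beauty against 0.356, 0.461 and 0.262 CPM in LK99 (log2 fold change 4.88, SE 0.85, adjusted p 0.00069), differs by A5G from P20, which was at 13.2, 13.3 and 16.6 CPM against 17.3, 30.3 and 38.3 CPM. The latter's log2 fold change of -0.99 (adjusted p 0.020) lost its call without LK99 replicate 3 or Red beauty replicate 1 or 2 (adjusted p 0.068 to 0.095). P22, at 59.9, 56.1 and 78.4 CPM against 25.7, 28.8 and 24.0 CPM (1.31, SE 0.24, adjusted p 0.0010; 0.86, adjusted p 0.052, with 6 libraries and the sizes implied by the deposited TPM columns, a setting added after seeing the data), differs by T6C from P21 (3.02, 4.18 and 5.72 CPM against 7.47, 11.5 and 12.1 CPM; -1.26, adjusted p 0.036). P21 lost its call without LK99 replicate 2 or 3 or Red beauty replicate 1 or 2. P19 and P9 met only the wider definition chosen after values were seen, and each had already been named for its steep fold change. P19 was at 27.5, 21.1 and 26.9 CPM in Red beauty and 0.474, 0.154 and 0.262 CPM in LK99. P9 was at 0.355, 0.398 and 0.738 CPM in Red beauty and 83.6, 77.3 and 93.7 CPM in LK99. Their log2 fold changes were 6.27 (SE 0.54, adjusted p 3.7e-06) and -7.36 (SE 0.72, adjusted p 7.9e-06). They share 21 nt apart from C15T and A18G and have a start 1 base apart. Which sequence a precursor releases, and from how many loci, was not tested, since no genome was used.

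**Figure D4:**
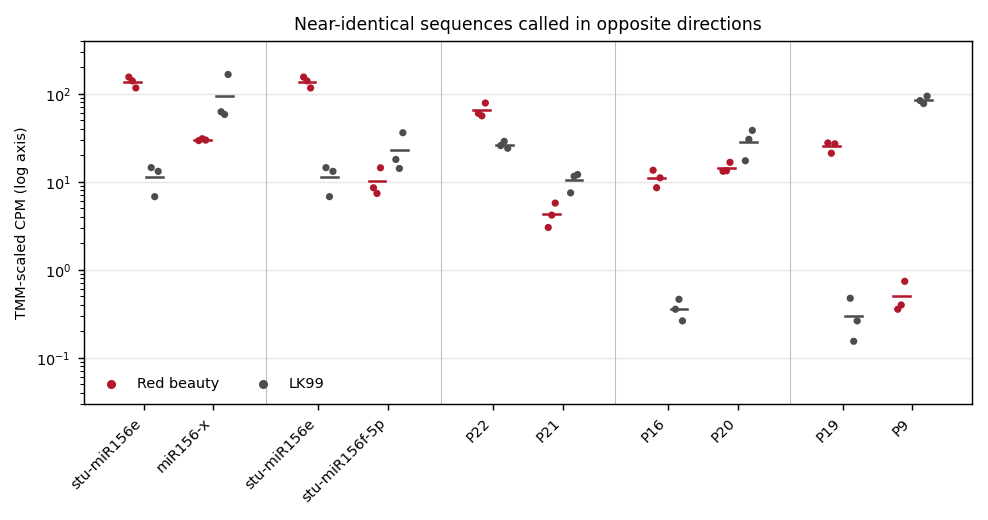
TMM-scaled CPM (log axis) of 5 pairs of near-identical sequences, with the 3 libraries of each cultivar as points and means as lines; values of 0 would be drawn at 0.05. In each pair 1 member is higher in Red beauty and the other in LK99, and levels run from 165 CPM for miR156-x in LK99 replicate 3 down to values below 1 CPM.

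Of 26 potato-named precursors with both strands tested, 7 had both strands called in the same direction, 1 in opposite directions, 10 had only 1 strand called and 8 had none. Precursors that share a sequence on 1 strand were counted separately. The pair in opposite directions was miR166d, whose 3p sequence is shared with miR166a and miR166c. The 5p strands of miR166a (0.48, adjusted p 0.25) and miR166c (0.36, adjusted p 0.70) did not pass. The same-direction pairs were miR6149, miR319a and miR156g in the higher direction and miR6024, miR6026, miR482d and miR482e in the lower. For miR156g the 5p sequence is the shared one named stu-miR156e above. Among predicted precursors, 35 had both strands tested, 8 had both called, and in all 8 the strands moved the same way.

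When counts were summed over all sequences with the same seed, 296 of 1006 seed groups were called (29.4%), 125 higher (12.4%) and 171 lower (17.0%), with a median log2 fold change of -0.05. Of 95 seeds with several tested sequences 27 were called, and 41 had members called in a single direction while 6 had members called in both. The miR8006 seed AGTTTTT was at 42.8 CPM ± 4.98 (SD, n = 3) in Red beauty and 220 ± 2.98 (n = 3) in LK99 (-2.36, SE 0.22, adjusted p 3.4e-06). The miR6149 seed TGCAACA was at 2027 ± 374 against 177 ± 90.6 CPM (3.52, SE 0.36, adjusted p 5.3e-06). The seed with the highest fold among those with several tested sequences, GACGGAC, whose tested sequences were all predicted, was at 29.6 ± 3.21 against 2.08 ± 0.579 CPM (3.81, SE 0.32, adjusted p 1.3e-06).

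By length, 22 nt sequences were called most often, with 62 higher and 92 lower of 356 tested (43.3%), beside 54 and 66 of 364 at 21 nt (33.0%) and 16 and 13 of 184 at 23 nt (15.8%). The share called over all lengths was 32.4%, and differences between these shares were not tested. Counts at 21 nt made up 98.1% ± 0.132 (SD, n = 3) of the Red beauty libraries and 96.4% ± 0.345 (n = 3) of the LK99 libraries, and counts at 22 nt 1.49% ± 0.148 and 3.00% ± 0.257. In both cases the libraries did not overlap and the two-sided exact permutation p was 0.1, the smallest that 3 against 3 allows. Without miR166-y, 21 nt counts made up 71.7% ± 1.00 and 65.5% ± 1.56, and 22 nt counts 22.5% ± 1.24 and 28.7% ± 1.31. The length classes and the abundant sequences are the same counts, so these shares are not independent of the results above.

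**Figure D5:**
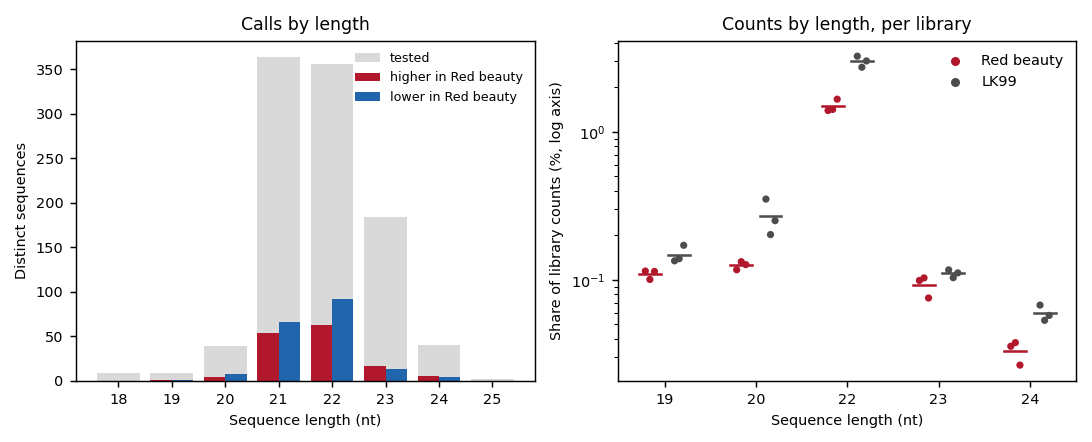
Left, number of tested distinct sequences by length (bars from 0) with those higher and lower in Red beauty; right, share of library counts (log axis) by length, with the 3 libraries of each cultivar as points and means as lines. At 22 nt the Red beauty mean is 1.49% and the LK99 mean 3.00%, with no overlap.

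Black kingkong against Longshu No.7 shares no library with Red beauty against LK99 and was fitted in the same model. It called 327 sequences (32.6%). Of the 325 called between Red beauty and LK99, 125 (38.5%) were called there too, which is 38.2% of that list. Of these, 43 had the same sign in both and 82 the opposite, with 41 lower in Red beauty and higher in Black kingkong and 41 the reverse. Of those with the same sign, 30 were lower in both and 13 higher in both.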

How the data were processed

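Small RNA of 18 to 30 nt was gel-selected and sequenced on an Illumina instrument, per the labels' protocols; for the aligner, counter, miRBase release and build, the answer is not given in the sources used here. The deposited table gives whole-number counts per mature sequence and library, not normalized. A deposited length column (other) gives sequence length in nt, and the deposited columns headed TPM were treated as a score and used in 1 alternative only, since their divisor differs from the library total. Entries with the same sequence were represented by the entry with the largest total. All 12 libraries were fitted in edgeR 4.0.16 (R 4.3.3, limma 3.58.1) with TMM and filterByExpr (minimum count 10, minimum total 15), using the quasi-likelihood F-test on Red beauty minus LK99 and Benjamini-Hochberg adjustment over all 1003 tested sequences (threshold 0.05). SE is the log2 fold change divided by the square root of F. The test was also run on data simulated from the fitted model for these 1003 sequences. It recovered 18.8% of 2-fold changes, 74% of 4-fold, 90.6% of 8-fold and 97.2% of 16-fold ones there, with 3.44% of calls false. The simulated data took their spread from the same fit and had no other difference between cultivars. These rates therefore hold under the model's own assumptions and do not check them. DESeq2 1.42.0, other scalings, filters, blocks and left-out libraries were alternatives. Intervals and floors cover counting error only.

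The lists and named sequences were chosen with earlier results of these data known. The named sequences were the 5 most abundant, the 8 highest and 8 lowest called fold changes without overlap and at least 10 CPM (1 per seed), for each family list its most abundant tested and its most changed called sequence, all tested anthocyanin regulators, the 3 most counted with 0 counts in the other cultivar in each direction, variant pairs called in opposite directions, strands that differ, and the 5 highest and 5 lowest seeds. A further 18 were chosen after values were seen.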

Additional observations from a re-analysis of the deposited data

How the results depend on the processing

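The total of 325 called sequences stayed within 1.5 times under DESeq2 (315, 307 of them shared), scaling by total counts (379), scaling without miR166-y (312), summed entries (323), the 6 libraries alone (266) and the fits that each left out a library (283 to 475; higher 120 to 210, lower 155 to 265; seed groups 250 to 429, higher 113 to 208, the highest without Longshu No.7 replicate 3, lower 137 to 221). With no filter on low counts 667 were called (292 higher, 375 lower; seed groups 547, 243 and 304), and with at least 10 CPM in 3 libraries 105 (45 and 60; seed groups 99, 44 and 55); fewer or more sequences were tested there. Scaling by total counts gave 86 higher and 293 lower (seed groups 81 and 265), and the library sizes implied by the columns headed TPM with 6 libraries, added after seeing the data, 74 and 195 (seed groups 75 and 196); the cause was not tested. Without Longshu No.7 replicate 3 and LK99 replicate 3 the higher seed groups were 193. The 21 nt and 22 nt differences in share moved to 6.18 and -6.16 without the most abundant sequence. The labels number the replicates alike in each cultivar, but same-numbered deviations correlated at -0.036 to -0.013, so no pairing by number was seen. These few correlations, mostly over low counts, cannot exclude a batch shared by number. The replicate block called 219 sequences with 6 libraries (108 higher, 111 lower; seed groups 217, 110 and 107) and 333 with 12 libraries; with 6 it called 2 higher and 2 lower of 16 meristem and phase change sequences and 1 higher and 2 lower of 22 resistance sequences, and stu-miR482e-5p had an adjusted p of 0.058. Of the 66 named sequences called, 47 kept their call in all 12 fits without a library, 44 kept it under every alternative that tested them and was not added after seeing the data (28 were tested in all of these; 53 of the 75 named were tested at 10 CPM and 69 with 6 libraries), and 0 reversed in any. A pair of uncalled ones changed sign: stu-miR156d-3p to -0.013 (DESeq2), -0.49 (total counts), -0.22 (no filter), -0.015 (summed entries), -0.45 (TPM columns) and -0.080 to 0.23 (left-out libraries), and miR397-y to -0.44 (total counts), -0.11 (no filter), -0.12 (12-library block), -0.30 (TPM columns), -0.29 (without both doubtful libraries) and -0.18 to 0.51 (left-out libraries). Sequences below 10 CPM dominate the list, 809 of the 1003 tested, and over all 1003 a 2-fold change was found in 18.8% of simulated cases.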
